A study of Homo sapiens with 6 samples.

Results

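The genes described here are the cathepsins and other lysosomal genes of U87-MG cells, an established human glioblastoma line. They were chosen by name, as 12 cathepsins, legumain, glycosidases, sulfatases, lipid hydrolases and their helpers, membrane proteins, parts of the proton pump and the transcription factors TFEB and TFE3. All 44 genes on that list were found among the 61731 genes and loci of the deposited table. The libraries were 3 of control cells (NC) and 3 of cells whose genotype is given as CHRM knockdown (KD), infected with a lentivirus against the muscarinic receptor gene CHRM3. Neither the labels nor the methods say which of the KD sequences the cells carried, whether the control cells received a control virus or when the cells were harvested, and nothing says that replicates were grown as separate cultures. The p-values below therefore measure the spread between these libraries, which may be technical. Levels are TPM, the share of a library's transcripts that a gene holds, scaled for transcript length.

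Lysosomes are acidic compartments in which proteins, glycans and lipids from outside and inside the cell are broken down. Cathepsins are their main proteases, the glycosidases and sulfatases take glycans apart, and a proton-pumping V-ATPase keeps the lumen acidic. TFEB and TFE3 are transcription factors of the MiT/TFE family, which move into the nucleus when nutrients are short and bind a palindromic element, the CLEAR element, in the promoters of many lysosomal genes. In tumours including glioblastoma, cathepsins are also secreted and can cut extracellular matrix.

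CHRM3 itself was at 0.02, 0.09 and 0.13 TPM in the controls and at 0.13, 0.01 and 0.02 TPM in the KD libraries. The groups were not separated (exact two-sided permutation p = 0.80, where 3 libraries against 3 cannot go below 0.10). At levels this near the rounding step of 0.01 TPM a reduction could not be seen, so each library's group rests on its label. The paper reported an efficient knockdown of CHRM3 in U87-MG cells in a separate check. Of 10 glioblastoma cell markers, VIM and CD44 were abundant and moved in opposite directions. VIM had means of 6574 TPM in NC and 7376 TPM in KD, and CD44 of 597.3 and 473.5 TPM. EGFR was lower (means 24.03 and 20.73 TPM) and CHI3L1 (32.54 and 43.92 TPM) and NES (2.25 and 3.58 TPM) were higher in every KD library than in every control. GFAP was at 0.87 to 1.46 TPM and FABP7 at 0.09 to 1.12 TPM, and SOX2, OLIG2 and S100B stayed under 1 TPM in every library. Of 12 macrophage and microglia markers, 11 were under 1 TPM in every library and TYROBP was at 0 in all 6. Without CSF1R, their summed level was 0.85 to 2.4 TPM in the controls and 0.32 to 0.99 TPM in the KD libraries. CSF1R rose, from 5.26 to 5.59 TPM to 9.13 to 9.20 TPM. Pearson's correlation of log2(TPM + 1) was 0.976 to 0.979 within groups and 0.964 to 0.969 between them.

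Most lysosomal genes were lower in the KD libraries. Of the 44 genes, 41 had a mean of at least 1 TPM and were tested. By limma with Benjamini-Hochberg adjustment over all 13722 tested genes, 27 of the 41 fell and 4 rose at an adjusted p under 0.05, and 10 did not pass. Over all tested genes, 24.0% were called lower and 12.1% higher (36.1% in either direction), against 65.9% and 9.76% of the 41. Without regard to a test, 32 of the 41 had a negative change, against 60.2% of all tested genes. The median log2FC (the log2 fold change, KD minus NC on the log2(TPM + 1) scale) was -0.22 for the 41 genes and -0.06 for all tested genes. The changes were modest, since GLA, the largest, stayed just short of a log2FC of -1. A change of 1 or more in size together with the adjusted p was met by 1.87% of all tested genes. The groups did not overlap for 34 of the 41, against 50.2% of all tested genes. The transcripts were measured in RNA pooled from many cells, in which fewer cells with a transcript and less of it per cell cannot be told apart.

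The counts moved with the scaling of the libraries. After median-of-ratios scaling, which brings the median of all tested genes from -0.06 to 0.00, 19 of the 41 genes were lower and CTSK, NAGLU, SMPD1 and SCARB2 were again higher, while the background became 16.3% lower and 16.8% higher. With a limit of 5 TPM, 27 of 38 genes were lower against 30.6% of all genes tested there, and 4 were higher against 15.2%. The number of rises rested on single libraries. It was 2 without control replicate 1, 1 without control replicate 2, 3 without control replicate 3, 2 without KD replicate 1, 1 without KD replicate 2 and 2 without KD replicate 3. Without KD replicate 1 the rises were CTSK and TFEB. With all libraries TFEB did not pass.

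**Figure D1:**
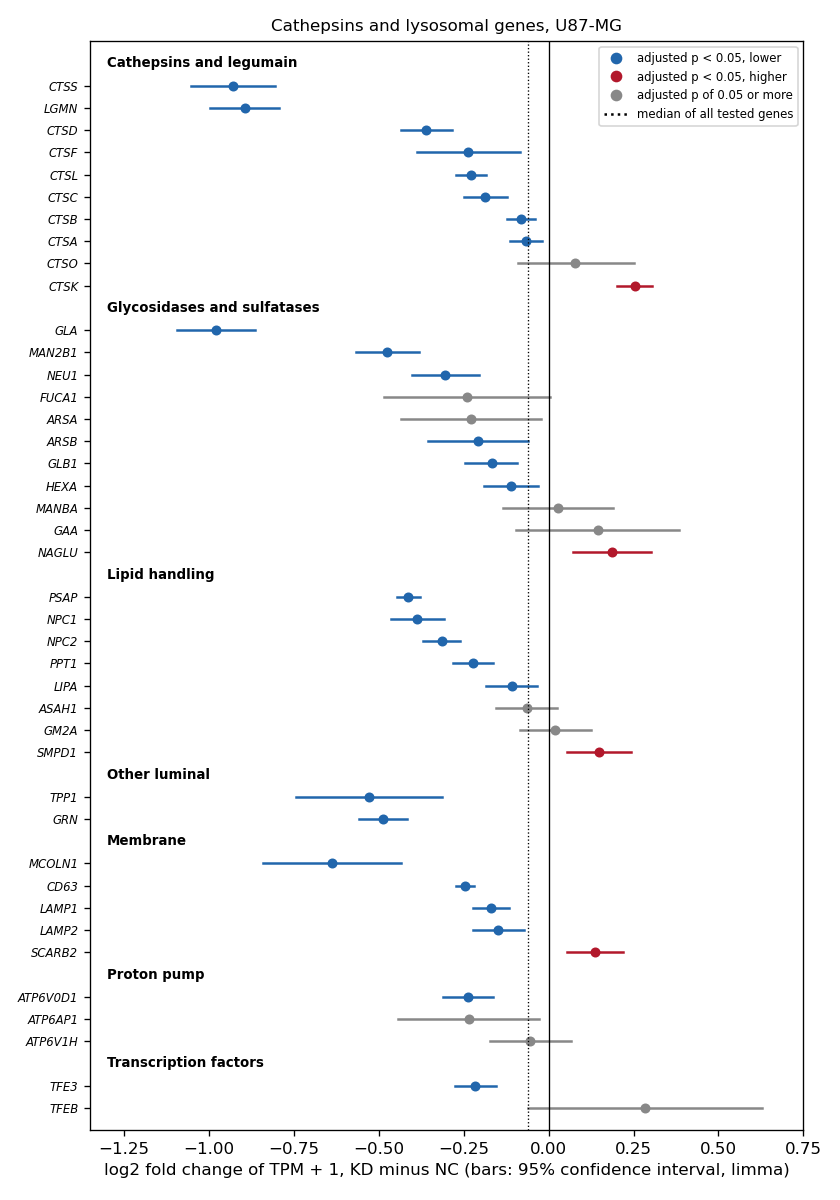
Log2FC of TPM + 1, KD minus NC, of the 41 tested cathepsin and lysosomal genes, grouped by role on the vertical axis. Points are limma estimates from 3 libraries per group, bars are 95% confidence intervals, colours give the call at an adjusted p of 0.05, and the dotted line is the median of all tested genes (-0.06). GLA, CTSS and LGMN lie at the left, near -0.9 and below, and CTSK, NAGLU, SMPD1 and SCARB2 are the rises that passed.

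As one pool, the 44 genes made up 0.731% of the transcripts in the controls and 0.615% in the KD libraries. Their summed level was 7283, 7288 and 7362 TPM in the controls and 6134, 6159 and 6158 TPM in the KD libraries. The groups were well apart, with means of 7311 ± 44.4 and 6151 ± 13.9 TPM (SD, n = 3 each) and an exact permutation p of 0.10, the smallest that this design allows. The change was -15.9% for all 44 and -16.0% for the 43 genes without CD63, the most abundant.

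The CLEAR element was searched because it is known from the promoters of many lysosomal genes. A raised share among lysosomal genes is therefore no result of these libraries. The shares of all genes below count every gene with a window, whether or not it is expressed in U87-MG cells. RefSeq promoter windows (GRCh38.p14, 250 bases before to 50 after each start) were at hand for 31 of the 44 genes. The core CACGTG, read on both strands as it is its own reverse complement, was in the windows of 10 of the 31 (32.3%) and of 8.77% of all genes with a window. The longer palindrome TCACGTGA, which contains the core, was in 5 of 31 (16.1%) against 1.18% of all genes, and the full GTCACGTGAC, which contains both, was in those of GAA and MCOLN1 (6.45% against 0.421%). The 4 windows below lie wholly upstream of the annotated gene and are shown, with each core in capitals, because they place several cores (LAMP1, MCOLN1, GAA) beside a single one (NEU1) in members whose changes differ. LAMP1 (plus strand, chr13:113297030-113297233) has 5 cores in this stretch and a sixth across its start, MCOLN1 (plus strand, chr19:7522566-7522623) and GAA (plus strand, chr17:80101488-80101555) have 2 each, and NEU1 (minus strand, chr6:31862925-31862964) has 1.
LAMP1: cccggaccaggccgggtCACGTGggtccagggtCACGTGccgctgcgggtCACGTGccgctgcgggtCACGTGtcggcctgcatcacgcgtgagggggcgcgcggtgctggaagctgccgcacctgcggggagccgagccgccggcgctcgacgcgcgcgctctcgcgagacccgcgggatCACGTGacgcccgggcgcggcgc
MCOLN1: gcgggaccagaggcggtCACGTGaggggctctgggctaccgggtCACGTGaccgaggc
GAA: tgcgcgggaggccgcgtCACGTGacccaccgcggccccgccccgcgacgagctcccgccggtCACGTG
NEU1: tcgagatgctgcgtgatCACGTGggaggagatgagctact

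Members with the core differed in the size of their change. LAMP1, with 6 in its window, fell by 0.17 on the log2 scale, MCOLN1 with 2 fell by 0.64, and GAA with 2 copies of TCACGTGA had a log2FC of 0.15 that did not pass (adjusted p = 0.307). The core was also in the windows of ARSB, ATP6V0D1, CD63, CTSA, CTSD and CTSF. Among tested members with a window, 9 of the 10 with the core fell and GAA did not pass, with a median log2FC of -0.24. Of the 18 without it, 12 fell and 2 rose, with a median of -0.23. For comparison, 24.0% of all tested genes were called lower and 12.1% higher, with a median of -0.06. These are descriptions of windows, not of binding. The windows of CTSK, CTSS, LGMN, CTSB, CTSO, HEXA, NAGLU, MANBA, ARSA, PSAP, ASAH1, LAMP2 and ATP6V1H were not in the table.

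Among the regulators, TFE3 was the more abundant and fell. TFE3 (ENSG00000068323, chromosome X from 49028726 to 49043486 on GRCh38) was at 64.9, 64.6 and 65.5 TPM in the controls and at 55.6, 55.3 and 56.5 TPM in the KD libraries. Every KD library was below every control, and the log2FC was -0.22 (standard error 0.0249, limma adjusted p = 0.00104). TFEB (ENSG00000112561, chromosome 6 from 41683978 to 41736259) was near the limit for testing, at 1.69, 1.69 and 1.66 TPM in the controls and 1.70, 2.51 and 2.66 TPM in the KD libraries. One KD library lay beside the controls and the other two lay above, and the log2FC of 0.28 did not pass (adjusted p = 0.173). Without KD replicate 1 it was 0.42 with an adjusted p of 0.0331, so the call of TFEB rests on that library. These are transcript levels, and the nuclear entry of both factors was not measured.

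Among the proteases, CTSB, CTSL and CTSD were the most abundant and made up 26.3%, 23.0% and 22.0% of the summed cathepsin and legumain level in the controls, with CTSA at 13.4% and CTSK at 7.59%. Their sums averaged 1940 ± 12.6 TPM for NC and 1728 ± 10.3 TPM for KD (SD, n = 3 each, exact permutation p = 0.10). Of the 10 tested genes, 8 fell (80.0% against 24.0% of all tested genes), CTSK rose and CTSO did not pass. CTSH, CTSV and CTSZ were under 1 TPM.

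Cathepsin S and legumain changed most. CTSS (ENSG00000163131), a protease that trims the invariant chain of MHC class II molecules and stays active at neutral pH, was at 31.4, 32.0 and 31.7 TPM in the controls and at 16.9, 15.0 and 16.7 TPM in the KD libraries. The KD libraries were at about one level, far below the controls, a fall of 48.9% (log2FC -0.93, standard error 0.0516, limma adjusted p = 6.06e-05). LGMN (ENSG00000100600, chromosome 14 from 92703807 to 92748702), the asparaginyl endopeptidase that matures several cathepsins, was at 35.8, 35.2 and 33.5 TPM in the controls and 17.8, 18.9 and 18.1 TPM in the KD libraries. It fell by 47.6%, with a log2FC of -0.90 (standard error 0.0421, limma adjusted p = 3.07e-05).

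Cathepsin K moved the other way. CTSK (ENSG00000143387), the collagen-cutting protease best known from osteoclasts, was at 147.9, 148.1 and 145.8 TPM in the controls and 174.1, 178.9 and 174.1 TPM in the KD libraries. All KD libraries were above all controls, a rise of 19.3% (log2FC 0.25, 95% confidence interval 0.20 to 0.30, limma adjusted p = 0.000304). CTSK and CTSS are neighbours on the minus strand of chromosome 1, with CTSS from 150730196 to 150765957 and CTSK from 150796208 to 150808323, and 30250 bases lie between them. The share of the protease pool held by CTSK went from 7.59 ± 0.101% to 10.2 ± 0.11%, and that of CTSS from 1.63 ± 0.00871% to 0.938 ± 0.0641% (SD, n = 3 each).

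The abundant endopeptidases fell less. CTSD (ENSG00000117984, chromosome 11 from 1752752 to 1764573), the main aspartic protease of the lysosome, was at 415.2, 423.5 and 444.8 TPM in the controls and at 330.7, 341.4 and 327.0 TPM in the KD libraries, a log2FC of -0.36 (standard error 0.031, limma adjusted p = 0.00033). An unnamed protein-coding gene on the same strand, ENSG00000250644, shares 41.7% of the exon bases of CTSD and had means of 18.2 TPM in NC and 26.3 TPM in KD. How reads were split between the pair was not tested. CTSL (ENSG00000135047), a broad cysteine protease, was at 442.1, 450.3 and 444.0 TPM in the controls and 381.4, 373.6 and 385.1 TPM in the KD libraries, with a log2FC of -0.23 (limma adjusted p = 0.000261). Both genes had KD libraries wholly below the controls.

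CTSB (ENSG00000164733), a cysteine protease, was at 511.9, 513.0 and 504.5 TPM in the controls and 487.8, 483.3 and 476.0 TPM in the KD libraries. The groups did not overlap, but the log2FC of -0.08 (limma adjusted p = 0.0124) was close to the shift of all genes and was -0.01 with an adjusted p of 0.737 after median-of-ratios scaling. CTSA, a carboxypeptidase that protects beta-galactosidase and neuraminidase, had a log2FC of -0.07 (limma adjusted p = 0.0413), which no longer passed when any library except KD replicate 2 was left out. Its sign turned with that scaling. CTSC, which activates granule serine proteases, and CTSF fell by 0.19 and 0.24 on the log2 scale, and the CTSF call was lost in 9 of 16 alternative fits. CTSO was at 4.48 to 5.10 TPM in the controls and 5.04 to 5.30 TPM in the KD libraries and did not pass (log2FC 0.08, 95% confidence interval -0.09 to 0.25).

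The 3 cathepsins under the limit were scarce in this line. CTSH, an aminopeptidase, was at 0.52, 0.66 and 0.35 TPM in the controls and 0.09, 0.17 and 0.42 TPM in the KD libraries, which overlapped. CTSZ was at 0.16, 0.12 and 0.17 TPM in the controls and 0.18, 0.22 and 0.13 TPM in the KD libraries. CTSV, a close paralog of CTSL, was listed at 0 in every control and at 0.05, 0.04 and 0.05 TPM in the KD libraries, a few rounding steps of 0.01 TPM.

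**Figure D2:**
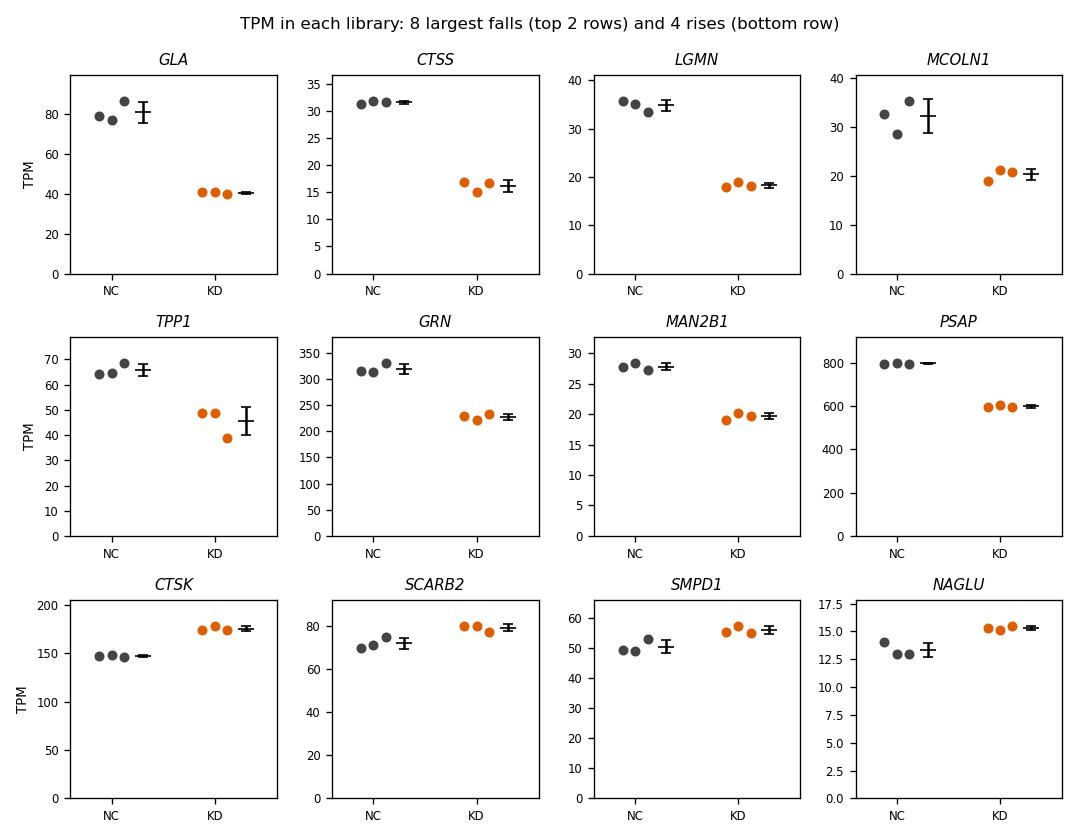
TPM in each library (linear axes from 0) of the 8 tested genes with the largest falls and of the 4 genes that rose, for NC (dark grey) and KD (orange), with the mean and SD of 3 libraries beside the points. In every panel the groups do not overlap, and KD replicate 3 lies below the other KD libraries for TPP1.

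Alpha-galactosidase A had the largest fall of the list. GLA (ENSG00000102393, chromosome X from 101397803 to 101408012), which removes terminal galactose from globotriaosylceramide and is deficient in Fabry disease, was at 79.05, 77.17 and 86.88 TPM in the controls and at 41.03, 40.84 and 39.89 TPM in the KD libraries. The KD libraries were tightly grouped and the fall was 49.9% (log2FC -0.98, 95% confidence interval -1.09 to -0.86, limma adjusted p = 3.69e-05). A read-through gene on the opposite strand spans GLA but shares 0 exon bases with it.

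Of the 11 glycosidases and sulfatases, 6 fell (54.5% against 24.0% of all tested genes), 1 rose and 4 did not pass. Their median log2FC was -0.21. MAN2B1 (ENSG00000104774), lysosomal alpha-mannosidase, was at 27.7, 28.4 and 27.2 TPM in the controls and 19.1, 20.2 and 19.8 TPM in the KD libraries, with a log2FC of -0.47 (standard error 0.0388, limma adjusted p = 0.000269). Its groups were far apart, but ENSG00000269242 on the same strand shares 13.1% of its exon bases, with NC and KD means of 4.17 and 3.80 TPM. NEU1 (ENSG00000204386), a sialidase that works in a complex with CTSA and GLB1, was at 34.0, 34.9 and 32.0 TPM in the controls and 27.0, 27.2 and 26.9 TPM in the KD libraries, a log2FC of -0.30 (limma adjusted p = 0.0019). The other members of that complex fell less, GLB1 by 0.17 and CTSA by 0.07 on the log2 scale.

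HEXA, the alpha subunit of beta-hexosaminidase, and ARSB fell by 0.11 and 0.21 on the log2 scale, and both calls were lost in 10 of the alternative fits. The sulfatase ARSA, the fucosidase FUCA1, the beta-mannosidase MANBA and the glycogen-degrading GAA did not pass, with log2FC values of -0.23, -0.24, 0.03 and 0.15. Without KD replicate 2, ARSA had a log2FC of -0.30 and an adjusted p of 0.0494. NAGLU (ENSG00000108784), an enzyme of heparan sulfate breakdown, rose from a range of 12.98 to 14.07 TPM in the controls to 15.30, 15.17 and 15.53 TPM, with a log2FC of 0.19 (limma adjusted p = 0.0238), a call lost in 5 of the 6 fits that left out a library, all but that without control replicate 1.

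For lipid handling, 5 of 8 genes fell (62.5% against 24.0% of all tested genes), SMPD1 rose and 2 did not pass. PSAP (ENSG00000197746, chromosome 10 from 71816298 to 71851375), which is cut into the saposins that activate sphingolipid hydrolases, was at 796.6, 799.1 and 797.2 TPM in the controls and 596.8, 605.3 and 594.8 TPM in the KD libraries. It was the most abundant member after CD63 and fell by 24.9%, with a log2FC of -0.41 (standard error 0.0141, limma adjusted p = 8.53e-06). NPC2 (ENSG00000119655) and NPC1 (ENSG00000141458) hand cholesterol out of the lysosome one after the other. NPC2 was at 511.2, 515.5 and 537.1 TPM in the controls and 419.3, 416.4 and 420.8 TPM in the KD libraries, a log2FC of -0.31 (limma adjusted p = 0.000156).

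NPC1 was less abundant, at 117.4, 111.8 and 114.0 TPM in the controls and 89.7, 87.7 and 84.4 TPM in the KD libraries. Its log2FC was -0.39 (standard error 0.0328, limma adjusted p = 0.000308), and its groups did not overlap, as those of NPC2 did not. PPT1, which removes fatty acids from proteins, fell by 0.22 on the log2 scale and shares 23.4% of its exon bases with CAP1 on the opposite strand, with NC and KD means of 419.0 and 376.0 TPM. Without stranded counting, which the sources used here do not state, reads from such a pair cannot be told apart. LIPA, lysosomal acid lipase, fell by 0.11 on the log2 scale, a call lost in 10 alternative fits. The sphingomyelinase SMPD1 (ENSG00000166311) was at 49.3, 49.0 and 52.8 TPM in the controls and 55.3, 57.4 and 55.0 TPM in the KD libraries, all above the controls, with a log2FC of 0.15 (limma adjusted p = 0.0266). The SMPD1 call was lost, among other settings, with no limit on low values, without a trend and without 5 of the 6 libraries in turn, control replicate 3 excepted. GM2A, with a log2FC of 0.02, and the ceramidase ASAH1, with -0.07, did not pass.

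Among the other luminal proteins, TPP1 (ENSG00000166340), a tripeptidyl peptidase that is deficient in a form of Batten disease, was at 64.3, 64.7 and 68.6 TPM in the controls and 48.8, 48.9 and 39.0 TPM in the KD libraries. All KD libraries were below the controls, with the third lower than the other two, and the log2FC was -0.53 (standard error 0.0894, limma adjusted p = 0.00495). GRN (ENSG00000030582, chromosome 17 from 44345086 to 44353102), the precursor of the granulins and a growth factor outside the cell, was at 315.2, 312.3 and 330.0 TPM in the controls and 228.3, 221.8 and 232.0 TPM in the KD libraries. It fell by 28.8% (log2FC -0.49, standard error 0.0289, limma adjusted p = 7.88e-05).

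Of the 5 membrane proteins, 4 fell and 1 rose (80.0% and 20.0%, against 24.0% and 12.1% of all tested genes). MCOLN1 (ENSG00000090674, chromosome 19 from 7522626 to 7534009), the calcium channel mucolipin 1, was at 32.6, 28.5 and 35.3 TPM in the controls and 18.9, 21.1 and 20.7 TPM in the KD libraries. The controls were spread, yet the groups stayed apart, with a log2FC of -0.64 (standard error 0.0841, limma adjusted p = 0.0018). The tetraspanin CD63 (ENSG00000135404), the most abundant member and a common marker of late endosomes and exosomes, was at 2127, 2127 and 2124 TPM in the controls and 1789, 1785 and 1805 TPM in the KD libraries. It fell by 15.6% (log2FC -0.25, standard error 0.011, limma adjusted p = 2.57e-05).

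The major coat glycoproteins LAMP1 and LAMP2 fell by 0.17 and 0.15 on the log2 scale (limma adjusted p = 0.00178 and 0.0123), and that of LAMP2 did not pass with median-of-ratios scaling (adjusted p = 0.115). SCARB2 (ENSG00000138760), an abundant protein of the lysosomal membrane rose from 69.9, 71.1 and 74.9 TPM to 80.3, 80.0 and 77.5 TPM, with a log2FC of 0.14 (limma adjusted p = 0.0219). The SCARB2 call was lost, among other settings, without control replicate 1 or 2, without KD replicate 1 or 2 and without a trend.

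All 3 proton pump members had a negative log2FC, as did 60.2% of all tested genes. Only ATP6V0D1 passed (33.3% lower, near the 24.0% of all tested genes). ATP6V0D1, a subunit of the membrane sector, was at 191.0, 180.7 and 188.6 TPM in the controls and 155.9, 163.0 and 156.2 TPM in the KD libraries and fell by 0.24 on the log2 scale (limma adjusted p = 0.00167). ATP6AP1, an accessory protein of pump assembly, was at 115.2, 113.4 and 112.1 TPM in the controls and 86.0, 94.1 and 110.6 TPM in the KD libraries, and its log2FC of -0.24 did not pass (adjusted p = 0.0758). Without KD replicate 3, its highest KD library, the value was -0.33 with an adjusted p of 0.00582. ATP6V1H did not pass (log2FC -0.05, 95% confidence interval -0.17 to 0.07).

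**Figure D3:**
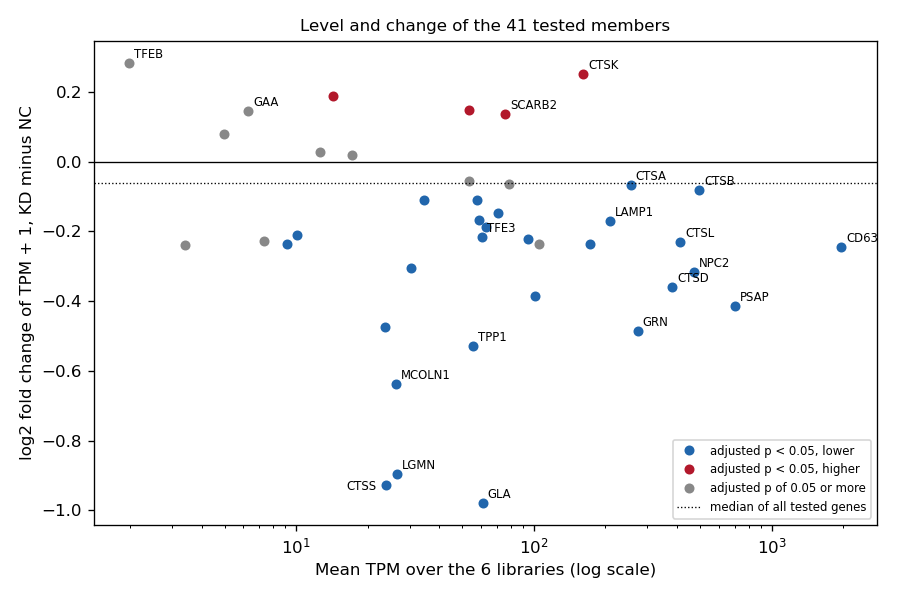
Mean TPM over the 6 libraries (log axis) against the log2FC of TPM + 1, KD minus NC, for each of the 41 tested genes, coloured by the call at an adjusted p of 0.05, with the dotted line at the median of all tested genes (-0.06). The 5 most abundant members, CD63, PSAP, CTSB, NPC2 and CTSL, fell by 0.08 to 0.41 on the log2 scale, while the 3 largest falls are of genes at intermediate levels.

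The rest of the pathway was examined with 7 further lists of 134 genes, of which 110 were tested. Over these, 57 fell and 7 rose (51.8% and 6.36%, against 24.0% and 12.1% of all tested genes). Of 18 further V-ATPase subunits, 14 fell (77.8% against 24.0% of all tested genes) and 1 rose, with a median log2FC of -0.25. ATP6V0D2 fell from 3.20, 3.31 and 3.07 TPM to 1.18, 1.49 and 1.02 TPM (log2FC -0.92, limma adjusted p = 0.00153). The accessory protein ATP6AP2, also the prorenin receptor, fell from 115.5, 123.1 and 120.2 TPM to 74.0, 74.8 and 82.1 TPM (log2FC -0.63, limma adjusted p = 0.000188). ATP6V1E2 had the opposite direction and barely passed (log2FC 0.37, adjusted p = 0.0487).

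Of 24 further hydrolases, 10 fell (41.7% against 24.0% of all tested genes) and 14 did not pass. The largest falls were those of SGSH, a sulfamidase of heparan sulfate, by 0.77 and of the carboxypeptidase SCPEP1 by 0.63 on the log2 scale (limma adjusted p = 0.0019 and 8.6e-05). Of 18 further membrane proteins and transporters, 9 fell (50.0% against 24.0%) and 9 did not pass. The largest falls were those of TMEM192 and the sialic acid exporter SLC17A5, with log2FC values of -0.65 and -0.59 (limma adjusted p = 0.00113 and 0.00289). For tagging and sorting, 4 of 12 fell and 2 rose (33.3% and 16.7%, near the 24.0% and 12.1% of all tested genes), with a median log2FC of -0.02 against -0.06. Both mannose 6-phosphate receptors, which carry new hydrolases to the lysosome, were lower, IGF2R by 0.45 and M6PR by 0.35 on the log2 scale (limma adjusted p = 0.000135 and 8.55e-05). SORT1, a sorting receptor that acts without that tag, rose from 3.84, 4.06 and 4.18 TPM to 5.81, 5.48 and 5.57 TPM (log2FC 0.40, adjusted p = 0.00484), and CLN6, a protein of hydrolase export from the endoplasmic reticulum, rose by 0.21 on the log2 scale (adjusted p = 0.0108).

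Of 15 genes of nutrient sensing at the lysosome, 6 fell and 3 rose (40.0% and 20.0%, against 24.0% and 12.1% of all tested genes), and their median log2FC was -0.06, as for all tested genes. The Rag GTPases, which tie amino acids to mTORC1, went both ways. RRAGB and RRAGD fell by 0.55 and 0.37 on the log2 scale and RRAGA rose by 0.35 (limma adjusted p = 0.00131, 0.00957 and 0.00112), and RPTOR rose by 0.19. Of 19 autophagy genes, 12 fell and 1 rose (63.2% and 5.26%, against 24.0% and 12.1% of all tested genes). SQSTM1, the cargo receptor p62, fell from 887.3, 905.8 and 899.6 TPM to 521.4, 548.4 and 548.9 TPM (log2FC -0.73, limma adjusted p = 7.41e-06), and GABARAPL1 fell by 0.78 on the log2 scale (adjusted p = 0.000153). GABARAP, of the same family as GABARAPL1, rose from 284.7, 286.1 and 277.8 TPM to 317.6, 331.4 and 333.2 TPM (log2FC 0.21, adjusted p = 0.0012).

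Of 13 listed inhibitors of cathepsins, only 4 were tested, of which 2 fell and 0 rose (50.0% lower, against 24.0% lower and 12.1% higher of all tested genes). Both that passed were intracellular stefins. CSTA was at 8.26, 9.84 and 7.72 TPM in the controls and at 1.13, 1.24 and 1.17 TPM in the KD libraries (log2FC -2.13, standard error 0.103, limma adjusted p = 3.43e-05), a larger change than that of any of the 44 genes. The abundant CSTB was at 1788, 1734 and 1757 TPM in the controls and 1287, 1274 and 1259 TPM in the KD libraries (log2FC -0.47, limma adjusted p = 1.01e-05). CST3, the main secreted inhibitor, was at 105.4 to 112.0 TPM in the controls and 102.6 to 122.3 TPM in the KD libraries and did not pass (adjusted p = 0.564).

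**Figure D4:**
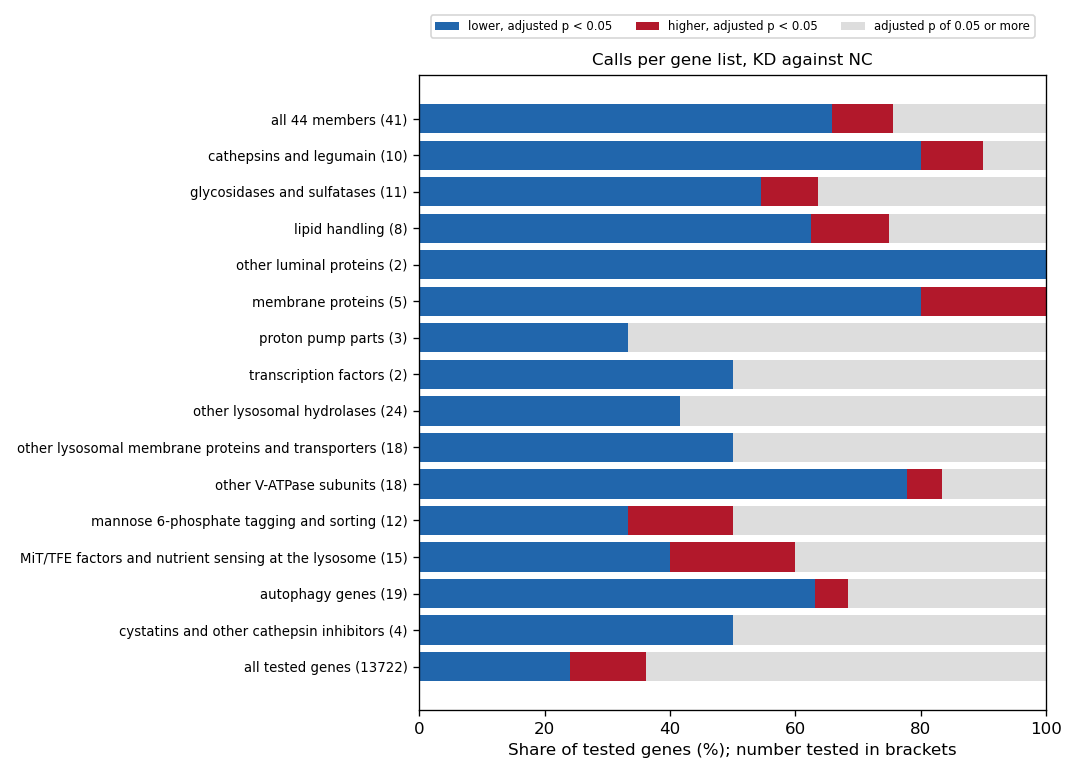
Share of tested genes (%) called lower (blue), called higher (red) or not passing an adjusted p of 0.05 (grey) in the limma fit, for the 44 genes, their role groups, the 7 further lists and all tested genes, with the number tested in brackets. The 41 tested members reach 65.9% lower and the further V-ATPase subunits 77.8%, against 24.0% of all tested genes.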

How the data were processed

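RNA from U87-MG cells, 3 NC and 3 KD libraries, was sequenced. The values the authors deposited are TPM for each gene in each library, rounded to 2 decimals. The submitters' processing notes name fastp, RSEM and the build GRCh38.p13, with no settings, and strand use and annotation are not given in the sources used here. For extraction and library making the labels give RNeasy and SMARTer and the methods give TRIzol and TruSeq. TPM keeps no read depth, so depth is unknown, no counting error is given and no count test was run. Of the deposited columns, 0 were left without a sample.

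Symbols came from a table of gene names, and coordinates and exons from GENCODE 29 (GRCh38). The fit (limma 3.58.1, R 4.3.3, eBayes with a trend, group as the only term) used log2(TPM + 1) of the 13722 genes whose mean over the libraries reached 1 TPM, with Benjamini-Hochberg adjustment over all of them. Every adjusted p for a gene is limma's, and a gene was called at an adjusted p under 0.05. Fold changes on this scale understate those of low genes. The procedure was tested on simulated data.

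The members and lists were chosen with earlier results of these data known. Full values are given for the 12 largest falls and all rises that passed, the 5 most abundant members, TFEB, TFE3 and members under 1 TPM, and each further list names its 2 largest falls and 2 largest rises that passed. ATP6V0D1, ATP6AP1, CST3, CD68 and the overlapping genes lie outside that rule and were named after their values were seen. One gene of the further lists is not reported here by name. Alternatives changed the pseudocount, the limit on low values, the scaling, the trend, a replicate block and the libraries used.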

Additional observations from a re-analysis of the deposited data

How the results depend on the processing

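The count of members that fell was 19 to 27 in every alternative run, within 1.5 times of 27, and 19 of those 27 kept their call in each one that tested them. ARSB, CTSA, CTSB, CTSF, GLB1, HEXA, LAMP2 and LIPA each lost it in at least 1. Of the rises, CTSK kept its call and NAGLU, SMPD1 and SCARB2 did not. Members that rose numbered 2 without a trend and 1 with the replicate block (adjusted p = 0.0631 for NAGLU, 0.0703 for SMPD1 and 0.0694 for SCARB2), against 4, and 1 to 3 when a library was left out. Deviations of same-numbered libraries from their group means correlated at -0.0198, 0.0341 and 0.0334. Control replicates 2 and 3 correlated best with their own number but control replicate 1 with KD replicate 3. With 3 libraries per group, these values cannot show whether same-numbered libraries were handled together. The block left 4007 genes past the threshold against 4955.

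The median log2 fold change of members was -0.147 with median-of-ratios scaling and -0.15 with quantile normalization, against -0.216, and -0.227 to -0.189 with a library left out. These scalings moved the median of all genes from -0.06 to 0.003 and 0.002, and the share of all calls that were lower went from 66.5% to 49.2% and 50.0%. The difference in summed TPM, -1160.5, was -827.2 with median-of-ratios scaling and -1283.2 with mitochondrially encoded transcripts left out. Leaving those out rescales the remaining TPM up to the same total, and it moved the median of all genes to -0.071. The libraries left out in turn gave -1174.6 to -1134.9.

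Small values changed sign. With median-of-ratios scaling CTSA was 0.005, ASAH1 0.005 and ATP6V1H 0.016, and with quantile normalization ATP6V1H was 0.003. With a library left out, MANBA ranged from -0.016 to 0.088 (-0.002 without control replicate 3 and -0.016 without KD replicate 3) and GM2A from -0.012, without KD replicate 2, to 0.039. Without control replicate 2, 1 member passed a log2 fold change limit of 1. CTSH, CTSV and CTSZ were left out by the limit of 1 TPM, and CTSV was also near the rounding step of 0.01 TPM.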

Other observations

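Near-identical copies of the members were examined after the values were seen. Of 7 pseudogene copies of CTSL in the table, 6 were at 0 TPM in every library and the highest value of the other was 0.12 TPM. Of the 44 genes, 21 overlap another annotated gene and 10 share exon bases with one of at least 1 TPM. The overlap was over 10% of the exon bases for CTSA (NEURL2, 17.7%, opposite strand), CTSD, MAN2B1 and PPT1. In the controls NEURL2 was at a mean of 1.62 TPM, against 260.8 TPM for CTSA. PLTP, on the opposite strand, shares 3.42% of the exon bases of CTSA and had means of 269.0 TPM in NC and 215.0 TPM in KD. How reads were split between CTSA and PLTP was not tested.

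CD68, a heavily glycosylated lysosomal membrane protein best known as a macrophage marker and also chosen after its values were seen, was at 250.8, 248.9 and 253.3 TPM in the controls and at 176.9, 170.1 and 171.1 TPM in the KD libraries (log2 fold change -0.54, limma adjusted p = 2e-05). CD68 was abundant in these libraries, while 11 of the 12 macrophage and microglia markers stayed under 1 TPM in every library. The exception, CSF1R, moved the other way from CD68, from 5.26 to 5.59 TPM in the controls to 9.13 to 9.20 TPM in the KD libraries. Which cells the CD68 transcripts came from was not tested.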
